A study of Drosophila melanogaster with 3 samples.

Results

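The peaks described here are the single-strand promoter peaks of a chromatin immunoprecipitation of the homeotic protein Labial in Drosophila melanogaster embryos. They were the 2806 of 10160 peaks (27.6%) of the pooled list, after filtering for an irreproducible discovery rate (IDR), whose summit lay within 500 bp of a protein-coding transcription start site and whose window held start sites on 1 strand only. The summit is the position of highest signal in a peak. Within the IDR list, the sign of the distance between summit and start site, the rank and the class of the gene were not used in this choice. The IDR list held the 10160 strongest peaks of the unfiltered pooled list, so every member was among these. Another 775 peaks (7.63%) had start sites of both strands in the window and are called divergent promoter peaks, and the other 6579 lay farther from any protein-coding start site.

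All chromatin came from whole embryos of both sexes, aged 0 to 24 h, of a transgenic line that stably makes Labial with GFP at its C terminus, and it was precipitated with an antibody against GFP in 3 biological replicates. Chromatin was sonicated to fragments of 200 to 800 bp. There was 1 group only, and no embryos without the fusion were analysed here, so binding that does not depend on Labial could not be set apart. Whole embryos mix tissues and stages, and a peak does not say in which cells it arose. The 3 replicates came from 1 line. Its labels name an insertion targeting lab and do not say whether unmodified lab was also present. Read numbers are not known here, and errors are the spread between replicates only.

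Labial is the most anterior Hox protein of the fly with roles in head and midgut development, and it often binds sites shared with its cofactors Extradenticle and Homothorax. A single-strand promoter has a defined upstream side, the promoter-proximal DNA where regulatory factors bind, and a downstream side, the 5' UTR and first intron. In flies, widely expressed genes often have promoters with the DNA replication-related element or Motif 1, while developmental genes often carry an initiator, a TATA box or sites for the GAGA factor. Hox proteins bind short AT-rich sequences built on a TAAT core.

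The bases at the summits are shown first because position, rank and base composition of these peaks moved together. Each run is the 101 bases centred on the pooled summit, read 5' to 3' on the strand of the gene, from the NCBI Release 6 genome, which is the dm6 coordinate system. Capitals mark GAGAG or its reverse complement, the core bound by the GAGA factor. The runs came from genes that the naming rule had chosen and do not show the full range. Named members that are not shown had 15.8% GC at aos and 70.3% at Kdm2. Runs with TAATTA, such as aos, or AGATAA, such as amon, are also not shown.
CG14100: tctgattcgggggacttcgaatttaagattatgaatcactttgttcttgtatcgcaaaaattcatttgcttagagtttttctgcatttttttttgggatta
Gapdh2: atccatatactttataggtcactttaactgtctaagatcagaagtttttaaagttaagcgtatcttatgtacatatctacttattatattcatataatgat
gro: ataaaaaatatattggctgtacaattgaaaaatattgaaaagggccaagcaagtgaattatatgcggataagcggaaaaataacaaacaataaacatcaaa
spi: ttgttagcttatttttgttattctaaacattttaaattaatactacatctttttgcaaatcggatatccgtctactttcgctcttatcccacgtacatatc
fkh: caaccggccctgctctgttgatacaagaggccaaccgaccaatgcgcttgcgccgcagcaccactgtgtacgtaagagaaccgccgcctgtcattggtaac
RpL23A: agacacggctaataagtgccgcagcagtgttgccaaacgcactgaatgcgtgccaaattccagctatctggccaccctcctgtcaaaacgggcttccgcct
lab: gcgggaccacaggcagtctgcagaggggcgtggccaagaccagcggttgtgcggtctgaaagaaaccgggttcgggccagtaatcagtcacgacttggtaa
wit: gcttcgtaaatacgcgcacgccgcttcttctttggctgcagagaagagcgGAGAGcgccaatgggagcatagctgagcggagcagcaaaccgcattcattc
pnt: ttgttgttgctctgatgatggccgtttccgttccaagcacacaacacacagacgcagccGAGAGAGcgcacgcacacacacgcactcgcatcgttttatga

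The first 4 runs lay upstream of the start site in strong peaks, where a negative distance is upstream and rank 1 is the strongest of the 10160 IDR peaks. CG14100 (3L:19590572-19590672, minus strand) had its summit at -98 bp at rank 4, with 31.7% GC in these bases. Gapdh2 (X:15867941-15868041, plus strand), a gene of glycolysis, had its summit at -154 bp at rank 13, with 24.8% GC. gro (3R:26042443-26042543, plus strand), the corepressor Groucho, had its summit at -148 bp at rank 241, with 27.7% GC. spi (2L:19575737-19575837, minus strand), the EGF receptor ligand Spitz, had its summit at -200 bp at rank 376, with 29.7% GC. None of these 4 runs holds GAGAG.

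The other runs were richer in GC. Weaker named peaks that are not shown went both ways, with 21.8% GC at the muscle gene Act87E (rank 5538) and 58.4% at the neural factor gene pros (rank 6759). fkh (3R:28585442-28585542, minus strand), the fork head factor of gut and salivary gland, had its summit at -228 bp at rank 77 and 58.4% GC, so a strong upstream peak was not always AT-rich. RpL23A (3L:1668676-1668776, minus strand), a ribosomal protein gene, had its summit at -72 bp at rank 99, with 55.4% GC. lab (3R:6678567-6678667, minus strand), which encodes Labial, had its summit at -27 bp at rank 1537, with 60.4% GC. wit (3L:4071710-4071810, minus strand), a BMP type II receptor, had its summit at -43 bp at rank 4145, with 56.4% GC and a GAGAG. pnt (3R:23314458-23314558, minus strand), the ETS factor Pointed, had its summit at -193 bp at rank 3387, with 53.5% GC and overlapping GAGAG matches.

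Summits lay mostly upstream. Of the 2806 peaks, 1998 (71.2%) had the summit upstream of the nearest start site, 802 (28.6%) downstream and 6 on it. The median distance was -90 bp, with quartiles of -224 and 16 bp. Among the 13658319 genome positions that pass the same rule, 45.2% lie upstream and 54.7% downstream. The summits were therefore more often upstream than the space that the rule leaves.

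Each replicate gave the same picture when its 10160 strongest peaks were read by the same rule. Replicates 1, 2 and 3 had 2975, 2761 and 2850 single-strand promoter peaks, a share of 28.2% ± 1.06 (SD, n = 3). Their summits were downstream in 28.4%, 28.0% and 29.1% of these peaks, and the medians were -81, -94 and -85 bp. The shares differed little between replicates. The pooled list was called on the reads of all 3 replicates, so it is not independent of them.

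**Figure D1:**
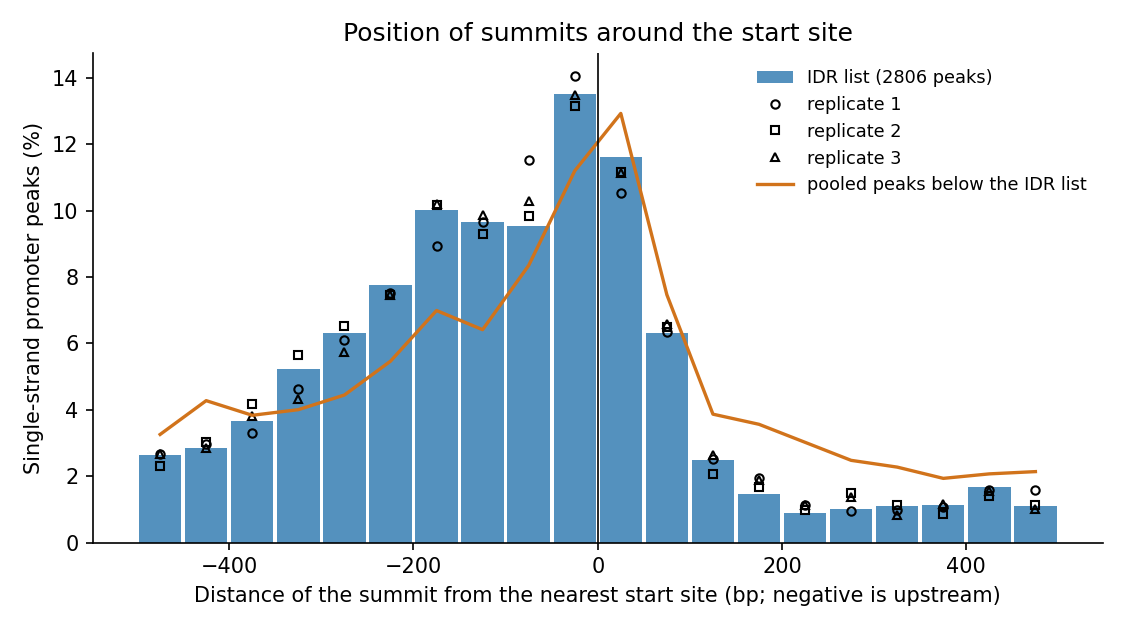
The horizontal axis is the distance of the summit from the nearest start site in bp, in steps of 50 bp, and the vertical axis the percent of single-strand promoter peaks. Bars are the 2806 peaks of the IDR list, symbols the 3 replicate lists and the line the 2946 pooled peaks below the IDR list. Bars and symbols are high from about -200 bp to the start site and drop past 100 bp downstream, where the line stays above them.

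By zone, 404 peaks (14.4%) had the summit 301 to 500 bp upstream, 947 (33.7%) at 101 to 300 bp upstream, 1152 (41.1%) within 100 bp of the start site and 303 (10.8%) at 101 to 500 bp downstream. The same zones hold 16.6%, 18.4%, 21.1% and 44.0% of the positions that pass the rule. The start site and the 200 bp before the -100 bp mark held more summits than their share of positions, and the inside of the gene held fewer. Of the 1998 upstream summits, 1059 (53.0%) lay outside protein-coding genes and 648 (32.4%) in an intron of the same gene, upstream of an internal start site. Another 128 lay in an intron and 39 in an exon of another gene. Of the 802 downstream summits, 628 (78.3%) lay in the 5' UTR, 148 in an intron and 26 in coding sequence.

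Peaks of the pooled list that ranked below the IDR list leaned less upstream. Of these 19840 weaker peaks, 2946 (14.8%) were single-strand promoter peaks, and 41.4% of their summits were downstream, with a median of -35.5 bp. In the replicates the downstream share was 28.5% ± 0.532 among the 10160 strongest peaks and 42.4% ± 0.936 among the rest of the same list (SD, n = 3). The difference was -14.6, -13.3 and -13.8 percentage points in replicates 1, 2 and 3, a mean of -13.9 ± 0.641, with the strongest peaks lower in 3 of 3. The two-sided exact sign-flip permutation test gave p = 0.25, adjusted 0.25 over 2 tests by the Benjamini-Hochberg method, which is the smallest p this test can give with 3 replicates.

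The strongest peaks sat farthest upstream. When the 2806 peaks were put into 10 rank groups of nearly equal size, the median distance was -175, -161, -100.5, -101, -93, -49, -40, -50, -43.5 and -51 bp in rank groups 1 (strongest) to 10 (weakest). In rank group 1, which ended at rank 713, 87.5% of summits were upstream, and in rank group 10, which began at rank 8875, 63.0% were. The shift took place over the first 6 rank groups, and from there on the medians stayed between -51 and -40 bp. In the replicates, rank group 1 had a median of -173 ± 8.31 bp with 87.7% ± 0.281 upstream, and rank group 10 a median of -49.7 ± 2.52 bp with 60.5% ± 1.29 upstream (SD, n = 3). Both gaps were larger than the spread between replicates.

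The zones moved with rank in the same way. Summits 101 to 300 bp upstream made up 59.8% of rank group 1 and 27.4% of rank group 10, while those within 100 bp of the start site made up 16.7% of rank group 1 and 45.2% of rank group 10. In the replicates the first of these zones held 58.6% ± 1.27 of rank group 1 and 25.8% ± 1.34 of rank group 10, and the start site zone 18.0% ± 3.01 of rank group 1 and 43.9% ± 0.917 of rank group 10 (SD, n = 3). The zone 301 to 500 bp upstream held 16.0% of rank group 1 and 14.2% of rank group 10, and between 8.90% (rank group 6) and 19.6% (rank group 2) of the rank groups between them. Of the 209 members among the 500 strongest IDR peaks, 130 had the summit 101 to 300 bp upstream, 33 farther upstream, 31 within 100 bp of the start site and 15 farther downstream.

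**Figure D2:**
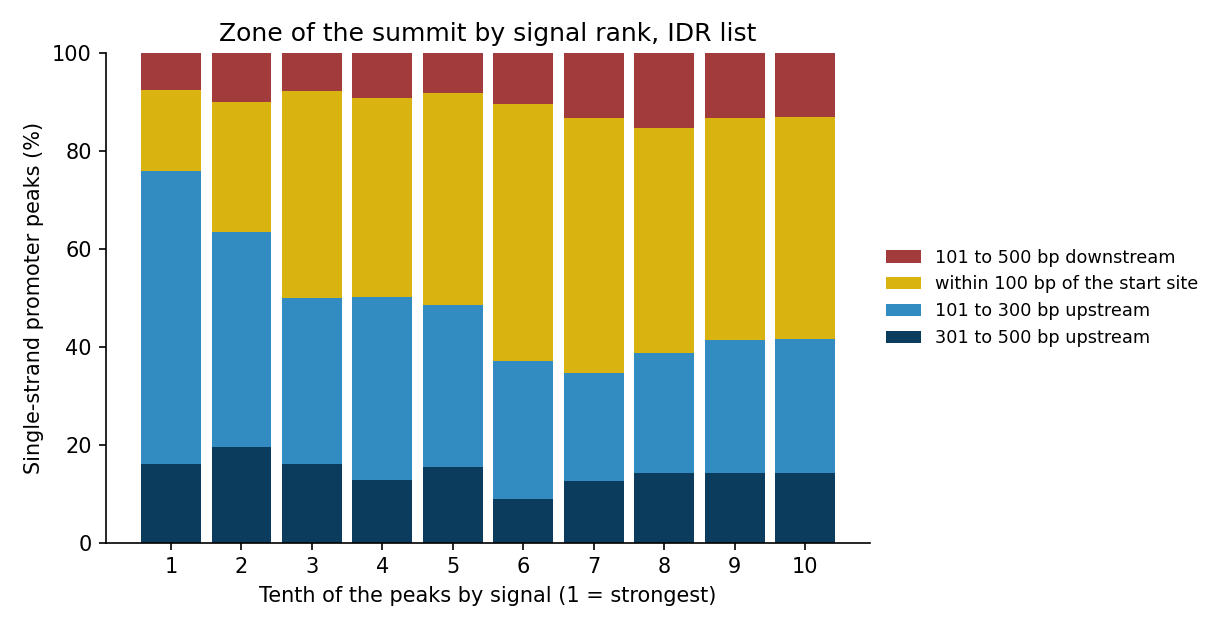
The horizontal axis is the rank group of the 2806 peaks by signal, from 1 (strongest) to 10, and the vertical axis the percent of peaks in each of 4 zones of summit position. The zone 101 to 300 bp upstream holds 59.8% of rank group 1 and 27.4% of rank group 10, and the zone within 100 bp of the start site 16.7% and 45.2%.

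Base composition followed rank as well. The median GC content of the 101 bases at the summit was 31.7, 33.7, 39.1, 40.6, 44.6, 44.6, 45.5, 43.6, 44.6 and 44.6% in rank groups 1 to 10. In the replicates it was 31.7% ± 0.990 in rank group 1 and 44.9% ± 0.572 in rank group 10 (SD, n = 3), and the difference was -11.9, -14.9 and -12.9 percentage points in replicates 1, 2 and 3. The strongest summits were thus the most AT-rich in every replicate. This comparison was chosen after the data were seen and carries no test.

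Position alone shifts base composition, so the comparison was repeated within zones. Over all 14770 start sites with no opposite start site in the window, the median GC content was 37.6% at -400 bp, 37.6% at -200 bp, 40.6% at -90 bp, 44.6% at the start site and 46.5% at +300 bp. Within the zone 101 to 300 bp upstream, the 236 strongest members had a median of 29.7% and the 236 weakest 41.6%. Within the zone around the start site, the 288 strongest had 46.5% and the 288 weakest 48.5%. In the far upstream zone the 101 strongest had 31.7% and the 101 weakest 34.7%, and inside the gene the 75 strongest had 37.6% and the 75 weakest 42.6%. The gap between strong and weak peaks was thus widest 101 to 300 bp upstream and small at the start site itself. Divergent promoter peaks had medians of 29.7% in their rank group 1 and 41.6% in their rank group 10, so the trend was shared by both kinds of promoter.

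**Figure D3:**
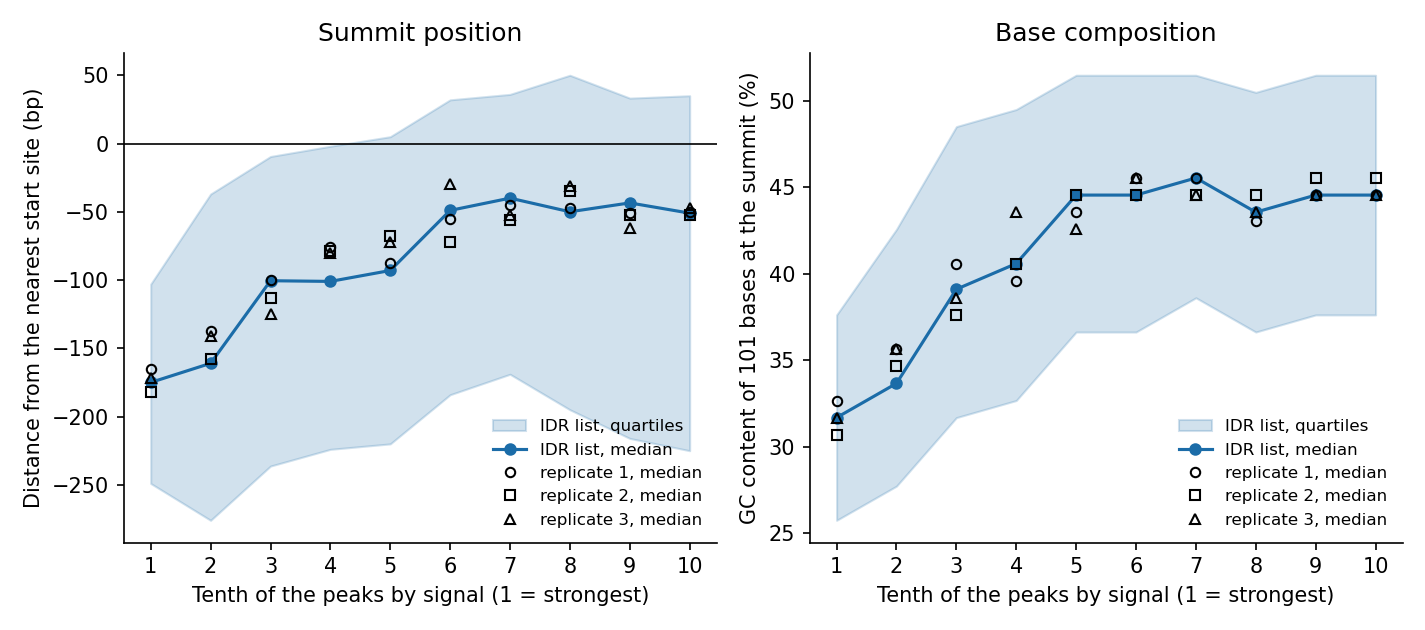
Both panels have the rank group by signal on the horizontal axis, from 1 (strongest) to 10. The left panel shows the distance of the summit from the start site in bp and the right panel the GC percent of 101 bases at the summit, with the IDR list as a line with its quartiles shaded and the replicate medians as symbols. The median distance is -175 bp in rank group 1 and -51 bp in rank group 10, the median GC content is 31.7% in rank group 1 and 44.6% in rank group 10, and the replicate symbols stay close to the line.

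As a whole the single-strand promoter peaks were of middling rank. Their median rank was at 46.6% of the IDR list, counted from the strongest, against 30.7% for divergent promoter peaks and 53.8% for peaks away from promoters. In the replicates it was 46.3% ± 0.273 for single-strand and 32.2% ± 2.09 for divergent promoter peaks (SD, n = 3). The difference was 16.9, 12.7 and 12.8 percentage points in replicates 1, 2 and 3, so single-strand peaks ranked weaker in 3 of 3, with a mean of 14.1 ± 2.37. The two-sided exact sign-flip permutation test again gave the smallest p possible, 0.25, adjusted 0.25 over 2 tests. The difference was 22.3 with a window of 250 bp. By zone, the median rank was 4079.5 at 301 to 500 bp upstream, 3451 at 101 to 300 bp upstream, 5325 around the start site and 5865 inside the gene. The replicates gave median ranks of 4087 ± 235, 3588 ± 87.0, 5297 ± 49.4 and 5833 ± 259 for these zones (SD, n = 3).

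The 10 strongest members found in all 3 replicates were led by Ugalt (FBgn0024994), a UDP-galactose transporter gene, whose peak at X:2703656-2704116 had a signal of 11184.6 and rank 1. The signal is the authors' value and serves only to rank peaks within a list. The Ugalt summit was at -26 bp in the pooled list, and at -27, -45 and -34 bp with ranks 1, 2 and 1 in replicates 1, 2 and 3. CG14100 followed at rank 4, and at rank 4 in each replicate. PNPase, a mitochondrial RNA exonuclease gene, was the only one of the 10 with a downstream summit, at +82 bp, rank 7 in the pooled list and ranks 6, 8 and 7 in the replicates. In the other 9 the summit was upstream in the pooled list and in every replicate.

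The remaining 7 of these 10 covered varied roles. mRpL41 (mitochondrial ribosome) had its summit at -142 bp and rank 8, with ranks 5, 14 and 6 in the replicates. px (Plexus, wing vein patterning) had -202 bp and rank 10, with ranks 15, 6 and 18. Gapdh2 had -154 bp and rank 13, with ranks 26, 9 and 13. The order of these peaks thus changed a little between replicates, while all stayed among the 26 strongest. ph-p (Polyhomeotic, a Polycomb group protein) had -463 bp and rank 14, with ranks 9, 12 and 11. amon (a prohormone convertase) had -227 bp and rank 15, with ranks 23, 10 and 15. Tina-1 had -183 bp and rank 16, and Fkbp14, a prolyl isomerase of the secretory pathway, -135 bp and rank 19.

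Strong downstream peaks were few. The strongest with the summit over 200 bp downstream was again at ph-p, at +422 bp in its 5' UTR and rank 57, with ranks 68, 45 and 49 in the replicates. It was followed by CG31612 at +486 bp and rank 178, and by bchs (Blue cheese, a BEACH-domain protein) at +443 bp and rank 190, both in introns. Both strong ph-p summits lay between 2 start sites of the gene on the minus strand, X:2138371 and X:2136855. The first was nearest to the more internal of these and upstream of it, and the second was nearest to the outer one and downstream of it. A further weak summit lay at +7 bp of another start site, at rank 9587.

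Many genes had more than 1 such peak. The 2806 peaks had 2198 different nearest genes, of which 1746 had 1 peak, 349 had 2, 66 had 3, 25 had 4, 8 had 5 and 4 had 6. The 4 genes with 6 peaks were Rtnl1 (the reticulon of the endoplasmic reticulum), Svil (an actin-binding supervillin), cnc (the bZIP factor of the head) and Pde8 (a cyclic nucleotide phosphodiesterase). At Rtnl1 all 6 summits lay upstream of internal start sites, with the strongest at rank 106, and at cnc 1 of 6 lay downstream. At 218 of the 2198 genes some summits were upstream and others downstream of their own nearest start sites, which may be different start sites. Summits on both sides of the same start site occurred at 55 of the 2602 start sites nearest to a member. In 2336 of the 2806 windows (83.3%) there was 1 start site position, so the nearest start site was unambiguous. Peaks of 1 gene share their locus and are not independent, and 51 members shared their interval with another row of the list at a different summit.

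Recovery in the replicates depended on how a match was defined. A reciprocal overlap of at least 50% with the 10160 strongest peaks of a replicate was found for 78.5%, 78.7% and 81.1% of members in replicates 1, 2 and 3, a mean of 79.4% ± 1.43, against 80.2% ± 2.00 for divergent peaks and 74.5% ± 3.68 for peaks away from promoters (SD, n = 3). In all 3 replicates at once 1706 members (60.8%) matched, and 163 (5.81%) matched in none. A replicate summit within 100 bp, in the whole list of 30000 peaks, was found in all 3 replicates for 2463 members (87.8%) and in none for 1. The median shift of such summits was 14, 7 and 11 bp in replicates 1, 2 and 3. Of these 2463 members, 2175 (88.3%) kept the same side of the start site in the pooled list and all 3 replicates.

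Along the ranks, the overlap match was 96.4% in rank group 1, 50.7% in rank group 3, 84.0% in rank group 6 and 6.05% in rank group 10. This match counted only the 10160 strongest peaks of each replicate. Rank group 10, at ranks 8875 to 10156, stands next to that cut, and the part of the cut in its low match was not tested. The summit match was lower in each weaker rank group, with 99.6% in rank group 1, 95.7% in rank group 3 and 74.0% in rank group 10. Rank group 3 also had the narrowest peaks, with a median width of 213.5 bp, against 387 bp in rank group 1 and 424 bp from rank group 4 on. The strongest member with no overlap match, Kdm2 (a histone demethylase gene), was such a narrow peak of 178 bp, with its summit at -130 bp and rank 1082. Its replicate summits stood at ranks 980, 1259 and 942, at -130, -131 and -83 bp.

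**Figure D4:**
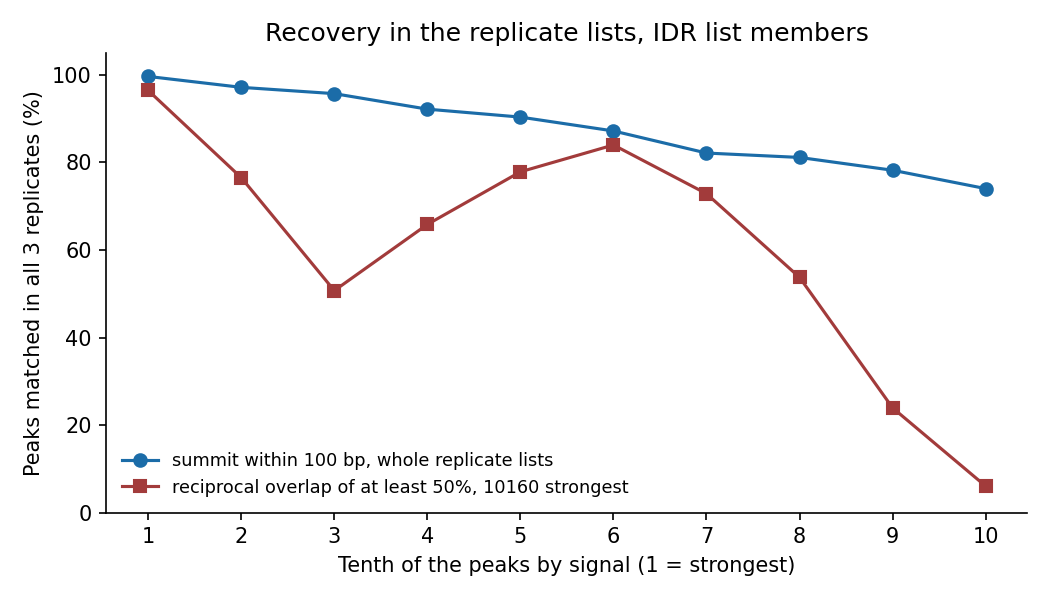
The horizontal axis is the rank group of the 2806 peaks by signal, from 1 (strongest) to 10, and the vertical axis the percent of peaks matched in all 3 replicates. The summit match is 99.6% in rank group 1 and 74.0% in rank group 10, and the overlap match has a low of 50.7% in rank group 3 and ends at 6.05%.

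In total 2262 of 13945 protein-coding genes had a start site at a single-strand promoter peak, which is 16.2% of all genes. Of the 10738 genes with at least 1 start site free of opposite start sites within 500 bp, 2231 (20.8%) had one. Divergent promoter peaks were found at 1444 genes (10.4%), and 148 genes had both kinds. These shares are the background for the gene classes below. The 32 classes held 1145 genes, of which 174 had a single-strand promoter peak. Since gene classes differ in how often they stand in divergent pairs, counts over all genes are followed by counts over genes with such a free start site where the numbers differ.

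Cytosolic ribosomal protein genes had many. Of 86 genes, 43 (50%) had a single-strand promoter peak, and 41 of the 56 with a free start site (73.2%). The replicate lists gave 44, 40 and 40 of 86 genes. Their 46 peaks had a median distance of -10.5 bp, and 42 lay within 100 bp of the start site, with a median rank of 1680.5. The 1152 members within 100 bp of any start site had a median rank of 5325. RpL23A was at -72 bp and rank 99, RpL24 at -18 bp and rank 183, and RpL30 at +12 bp and rank 210. The count was 57 genes with a window of 250 bp and 28 genes with 1000 bp.

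Several other classes of basic cell functions had few single-strand promoter peaks. Among mitochondrial ribosomal protein genes mRpL41 was the only one of 73, and of the 20 with a free start site, while 24 had a divergent promoter peak. Peaks were found at 2 of 32 proteasome subunit genes, 6 of 81 respiratory chain and ATP synthase genes, 7 of 44 translation initiation factor genes, 1 of 33 aminoacyl-tRNA synthetase genes, 1 of 12 Mcm and Orc replication genes and none of the 8 CCT chaperonin or 21 nucleoporin genes. Over genes with a free start site these counts were 2 of 13, 6 of 46, 6 of 30, 1 of 14 and 1 of 8, with 4 CCT chaperonin and 8 nucleoporin genes. The replicate lists had 1, 1 and 0 nucleoporin genes. These shares are below the 16.2% of all genes, by least for translation initiation factors with 15.9% and 8, 6 and 10 genes in the replicates. Over free start sites that class was at 20% against 20.8% of all genes, and the denominators of the others are small. Divergent promoter peaks were at 28.1% of proteasome, 18.5% of respiratory chain and ATP synthase and 21.2% of aminoacyl-tRNA synthetase genes, against 10.4% of all genes. They were at 4 of 44 translation initiation factor, 1 of 8 CCT chaperonin, 3 of 21 nucleoporin and none of 12 Mcm and Orc genes. eIF6, which keeps ribosomal subunits apart, was an exception in strength, at -99 bp and rank 37, in an intron of another gene. The vacuolar ATPase and Rab classes stood above the share of all genes. The vacuolar ATPase class had 6 of 33 genes (18.2%), and 6 of 23 with a free start site (26.1%), led by Vha100-4 at -185 bp and rank 687. Rab GTPases had 7 of 31 (22.6%), and 7 of 22 with a free start site (31.8%), led by Rab5 of early endosomes at -275 bp and rank 573.

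Heat shock proteins and detoxification enzymes differed among themselves. Of 24 heat shock protein genes 8 (33.3%) had a peak, which is 8 of 22 with a free start site, with 7, 7 and 8 in the replicates. Hsp83, the fly Hsp90, was at -103 bp and rank 30, with ranks 25, 36 and 31 in the replicates. The small heat shock genes Hsp27 and Hsp26 were at -149 bp and rank 102 and at -96 bp and rank 924. Glutathione S-transferases had 10 of 35 genes, or 10 of 32 with a free start site, led by GstE13 at +71 bp and rank 91. Cytochrome P450 genes had 14 of 83 (16.9%), near the 16.2% of all genes, and 14 of 80 with a free start site (17.5%), against 20.8%.

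Genes of chemical sensing and of the cuticle, whose products serve late in embryonic life or after it, were nearly free of such peaks. There was 1 of 179 odorant, gustatory and ionotropic receptor genes (Gr21a, a carbon dioxide receptor, at -188 bp and rank 6717), 2 of 51 odorant binding protein genes and 1 of 116 cuticle protein genes. The shares were 0.559%, 3.92% and 0.862%, against 16.2% of all genes. Most genes of these classes have a free start site, 164, 44 and 113 of them.

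Among homeotic genes, lab and Antp were the 2 of 8 with a peak (25%). All homeotic genes have a free start site, and 20.8% of all genes with one had a peak. The lab peak at 3R:6678519-6678650 had its summit at -27 bp and rank 1537, and replicate summits at -29, -27 and -26 bp with ranks 1862, 1694 and 1366. The position was held within 3 bp, although this narrow peak matched by overlap in 1 replicate only. The Antp peak was weak, at -243 bp and rank 9821, and replicate 2 had no summit within 100 bp. Of 6 Hox cofactor genes 1 (16.7%) had a peak. This was hth, which encodes Homothorax, at -175 bp and rank 7411. Its replicate summits were at -172, -174 and -177 bp with ranks 8511, 8790 and 8648.

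Signalling pathway genes and gut regulators had peaks often. Gut and visceral mesoderm regulators had 7 of 14 genes, with 7 in each replicate. Their 11 peaks had a median of -42 bp and ranged from -228 to 200 bp, with 5 summits within 100 bp of the start site and 3 of the 11 downstream. fkh stood at -228 bp and rank 77, with ranks 54, 144 and 50 in the replicates. tin, the NK homeodomain factor of heart and visceral mesoderm, stood at -200 bp and rank 554, and GATAe, a GATA factor of the midgut, at -214 bp and rank 3627. The GATAe summit was at -211 bp in replicate 1 and -146 bp in replicate 3, and replicate 2 had none within 100 bp of it. The strongest peaks of this class thus lay farther upstream than its median. Notch pathway and E(spl) genes had 8 of 16 genes, with 8 in each replicate. Their 15 peaks had a median of -206 bp and 13 lay upstream, led by gro. neur, an E3 ligase for Notch ligands, stood at -193 bp and rank 1230, and its replicate summits varied from -288 to -100 bp.

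EGF receptor pathway genes had 7 of 14, or 7 of 11 with a free start site, with 6, 6 and 7 in the replicates, and a median of -193 bp. After spi came aos, the secreted inhibitor Argos, at -167 bp and rank 1650, and pnt. The aos summit lay in an intron of another gene. It matched by overlap in 1 replicate only, with replicate summits at -182, -245 and -153 bp. Dpp pathway genes had 6 of 15, or 6 of 11 with a free start site, with 6, 6 and 4 in the replicates. shn, the zinc finger factor Schnurri, was strongest at -168 bp and rank 151, with ranks 171, 145 and 145. Dad, an inhibitory Smad, was at -370 bp and rank 5888 and had a nearby summit in replicate 1 only. These 4 classes stood at 40% to 50% of their genes, and at 50% to 63.6% of those with a free start site. Both were above the 16.2% and 20.8% of all genes. The classes hold 14 to 16 genes each, so 1 gene moves the share by several points. The median rank was 6487 for gut, 4505 for Notch, 3387 for EGF receptor and 7483 for Dpp peaks, against 4739.5 for all members. Gut and Dpp peaks were thus mostly weak, although the named ones include strong peaks. The stronger 5080 IDR peaks alone gave 5 gut, 6 Notch, 4 EGF receptor and 2 Dpp genes, and 9.68% of all genes.

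Patterning genes were mixed. Gap and terminal genes had 4 of 13 (30.8%) and segment polarity genes 4 of 15 (26.7%). Pair-rule genes had 1 of 9 (11.1%) and neural progenitor and head regulators 4 of 22 (18.2%). The share was 16.2% of all genes and 20.8% of those with a free start site. The neural regulators were thus near the share of all genes, and these classes are small. Gap and terminal, segment polarity and pair-rule genes and neural regulators all have a free start site. The pair-rule gene was hry (hairy), with its summit at -1 bp and rank 1795. Of the 9 peaks of gap and terminal genes 7 lay upstream, with a median of -79 bp. The strongest peak of cnc was at +311 bp and rank 1148, and that of hb (Hunchback) at +318 bp and rank 4525, both in introns, and these were the 2 downstream ones. cad (Caudal, a posterior homeodomain factor) was at -158 bp and rank 4074, with replicate summits at -132, -164 and -151 bp. nkd (Naked cuticle, a Wingless inhibitor) was at -148 bp and rank 2010, and the neural factors scrt, pros and SoxN were weak, at ranks 5690, 6759 and 6851.

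Glial and neuronal genes were led by strong peaks, and muscle genes were not. Glial genes had 5 of 12 (41.7%). They were led by moody, a G protein-coupled receptor of the blood-brain barrier, at -164 bp and rank 61, with ranks 51, 83 and 67 in the replicates. Neuron and synapse genes had 4 of 17 (23.5%), with 3, 6 and 3 genes in the replicates. They were led by elav, the neuronal RNA-binding protein, at -268 bp and rank 58, with ranks 71, 55 and 58. Muscle genes had 4 of 16 (25%), led by sls (titin-like Sallimus) at -244 bp and rank 1755, and the median rank of their 8 peaks was 7833.5. Every gene of these classes has a free start site, and 20.8% of all genes with one had a peak. The neuron and muscle shares were near this value. Both moody and elav summits lay in an intron of another gene, so the signal cannot be assigned to them over that gene from position alone. Polycomb group genes had 6 of 17 (35.3%), or 6 of 13 with a free start site (46.2%). The class of GAGA factor, insulator and core promoter factors had 4 of 16 (25%), or 4 of 11 (36.4%), with 5, 2 and 6 in the replicates. It was led by Trl, the GAGA factor gene itself, at +115 bp and rank 595.

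**Figure D5:**
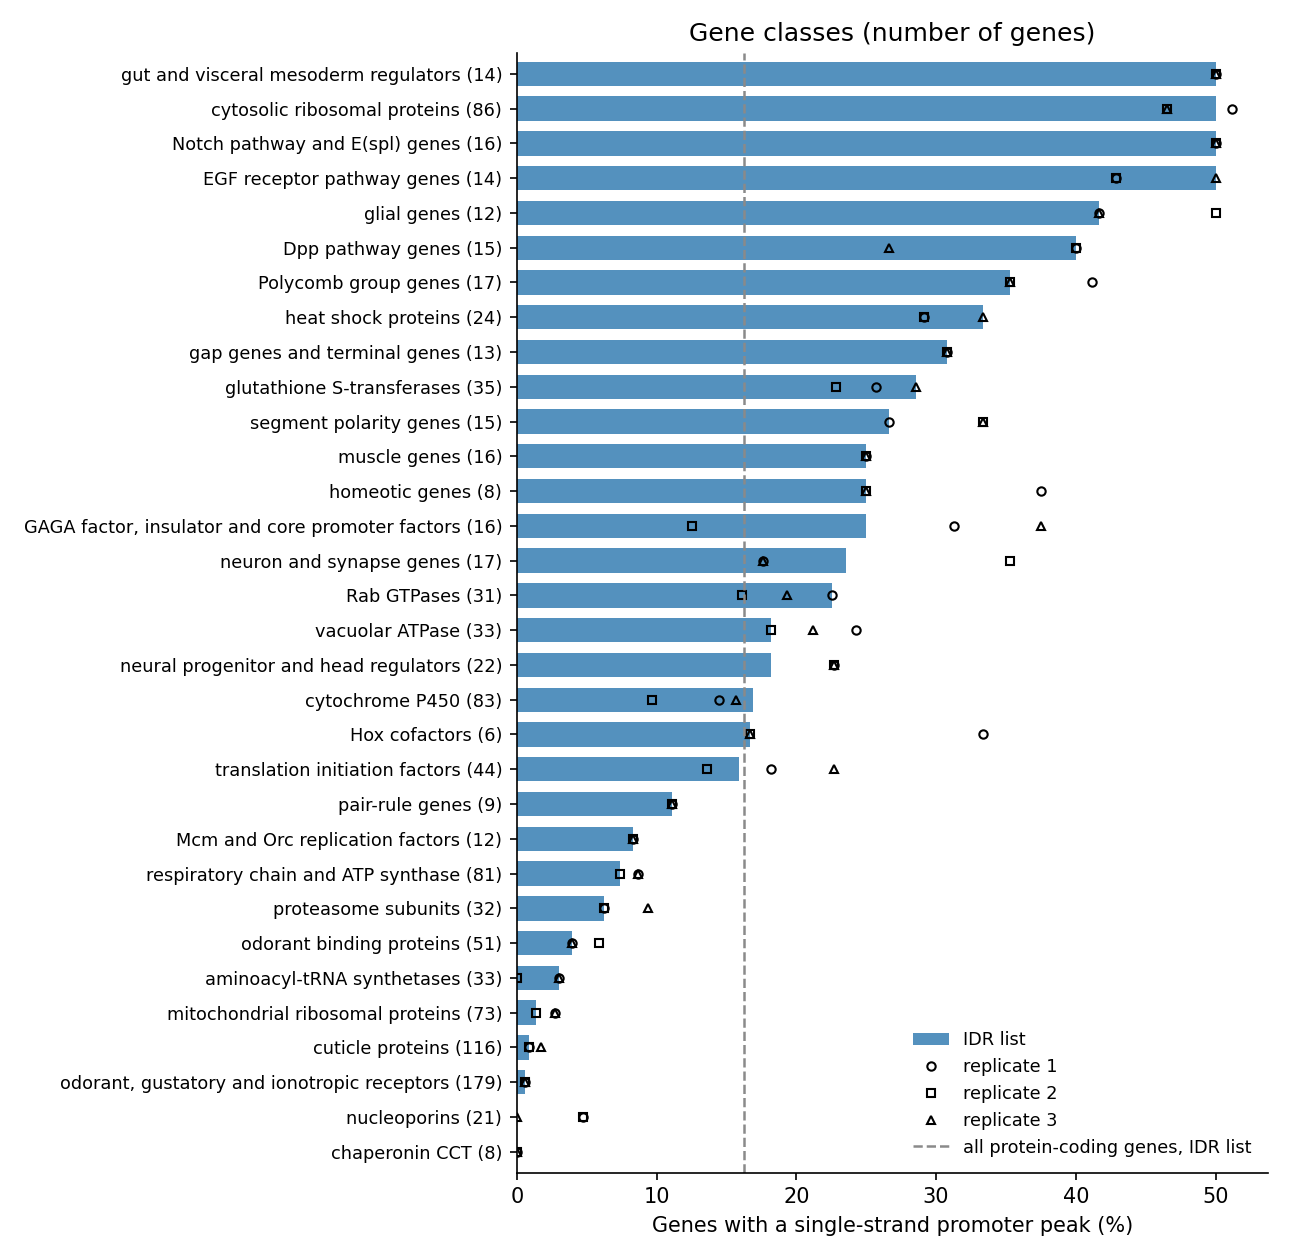
Each row is a gene class with its number of genes, and the horizontal axis the percent of its genes with a single-strand promoter peak. Bars are the IDR list, symbols the 3 replicate lists and the dashed line the 16.2% of all protein-coding genes. Ribosomal protein, gut, Notch and EGF receptor genes stand at 50%, and receptor, cuticle and mitochondrial ribosomal protein genes near 0.

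Motifs were counted as letters at the 2602 members' start sites, each counted once, and at all 14770 start sites without an opposite one within 500 bp. The window of a member was centred on its summit, so its start site can have an opposite one within 500 bp. The comparison set therefore holds members' start sites, but not all of them. Below, all start sites means these 14770. From 250 bp before to 50 bp after the start site, on both strands, GAGAG was found at 50.3% of members' start sites (49.5% ± 1.28 in the replicates; SD, n = 3), against 36.1% of all such start sites and 32.7% of the 11578 without an IDR summit in the window. The share was 59.4% for members with the summit 301 to 500 bp upstream and 45.0% for those with the summit around the start site. An initiator (TCAGT, on the gene's strand, within 10 bp of the start site) was found at 21.4% of members' start sites (21.3% ± 0.866) against 15.3% of all. A TATA box (TATAAA, same strand, 45 to 15 bp upstream) was found at 5.19% (4.99% ± 0.261) against 8.79% of all. Members' start sites thus held GAGAG and the initiator more often, and the TATA box less often, by more than the replicate spread. That spread is between peak lists that overlap, and it does not measure the error of a share against all start sites. Within 100 bp of the summit the gap in GAGAG was smaller, with 31.9% of members (32.0% ± 0.932) against 28.0% of all start sites in a window 90 bp upstream, the median position of the summits. There GAGAG was at 28.4% of the 651 strongest members' start sites and 33.9% of the 651 weakest. No test was run on these shares.

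The motifs of widely expressed promoters went with summit position. The DNA replication-related element (TATCGATA, both strands) was found at 5.65% of members' start sites against 5.27% of all, and within 100 bp of the summit at 3.42% of members against 4.45% of all in the window 90 bp upstream. By zone, its share at the start site was 1.47% with the summit 301 to 500 bp upstream, 2.26% at 101 to 300 bp upstream, 9.16% around the start site and 7.69% inside the gene. The core of Motif 1 (GGTCACAC, both strands) was at 5.73% against 4.39%, with zone shares of 3.53%, 2.60%, 8.61% and 6.96%. Both were thus more frequent at promoters whose summit lay within 100 bp of the start site, on either side, or farther downstream.

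Taken over all members, sites of the kind bound by Labial were about as frequent at summits as in the window 90 bp upstream of all start sites. Their shares differed between the zones of summit position, for which no window at a like position was counted. Those at the start site went in different directions. The composite site for Extradenticle and Labial was at 1.19% of members' start sites as TGATTGAT and 0.999% as TGATGGAT, against 1.62% and 0.846% of all start sites. Within 100 bp of the summit, TGATNGAT was at 2.84% of members, and at 2.84% of all start sites in the window 90 bp upstream. The homeodomain core TAATTA was in the window at the start site in 14.2% of members (14.4% ± 0.196 in the replicates; SD, n = 3), against 17.6% of all and 18.4% of those without an IDR summit. TAATTA and TGATTGAT were thus less frequent at members' start sites by more than the spread between the overlapping replicate lists, with no test. TGATTGAT was found at only 31 of the 2602 start sites. Within 100 bp of the summit TAATTA was in 12.3% of members against 12.2% of all, and at 16.0% of the 651 strongest members' start sites and 10.8% of the 651 weakest, and the same fractions of the replicate lists gave 15.4% ± 0.571 for the strongest and 9.32% ± 0.374 for the weakest (SD, n = 3). By zone, in the same order, TAATTA was within 100 bp of the summit in 20%, 15.6%, 6.71% and 14.3% of members. TAATTA holds no G or C, and the part of base composition in these differences was not tested. GATA sites (AGATAA) were at 13.3% of members and 13.3% of all in the summit window. The Zelda site CAGGTA, in the window at the start site, was at 6.19% against 6.62%. The E-box CAGCTG was at 19.2% against 15.6%, and CACGTG at 3.80% against 3.71%. The polypyrimidine initiator core CTTTT, counted only within 10 bp of the start site, was at 4.34% against 3.43%.

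The chromosome arms gave similar shares. Of the genes with a free start site, members were at 19.6% (chromosome arm 2L), 20.9% (arm 2R), 22.1% (arm 3L), 19.9% (arm 3R) and 22.5% (X chromosome), but at 3 of 73 such genes of chromosome 4. The downstream share of summits ranged among the large arms from 25.1% (arm 3R) to 31.3% (arm 2L).

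At the edges of the rule, CG5854 at +499 bp (rank 1119) and Syn at -499 bp (rank 7304) were just inside the window, and peaks near Dyro and Exn, each at -501 bp, at ranks 1778 and 5166, were just outside. The weakest member had a signal of 198.004 at rank 10156, the IDR list ended at 197.943, and the next pooled peak had 197.941.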

How the data were processed

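The deposited files are peak lists in narrowPeak form, per the deposited file descriptions called for each of 3 replicates, for the pooled reads and, as the optimal IDR list, from these. The signal of each peak is a score that the authors deposited, used here only to rank peaks within a list, and the −log10 q-value deposited by the authors was not used to rank them. The aligner, the peak caller, the IDR threshold and the read depth are not given in the sources used. The 10160 IDR peaks had the interval starts and summits of the 10160 strongest of the 30000 pooled peaks, in the same order. In the dm6 lists, 140 IDR rows shared their interval with another row at another summit. The dm3 lists were not used.

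Start sites were the 19253 transcript starts of 13945 protein-coding genes on the main arms in Ensembl release 115, and bases came from NCBI Release 6. Coordinates are 1-based, and the nearest start site sets the distance. Replicate lists were read at their 10160 strongest of 30000 peaks, with means and SD over 3 replicates. The replicates are described as biological replicates of 1 line. Differences within a replicate list were tested with exact two-sided sign-flip permutation tests over the 3 replicates. Gene classes and motifs were compared with all genes and all start sites as counts, with no test. A motif match is a match of letters, and matches of different motifs may overlap. For the start sites compared with members at the summit, the window was set at -90 bp.

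The members and lists were chosen with earlier results of these data known. Genes were named as the 10 strongest members matched in all 3 replicates, at most 3 members of each gene class by signal, all homeotic members, the 3 strongest beyond 200 bp on either side, the strongest with no match and those at the edges of the window. Genes with 6 peaks and the base composition and distance by rank were chosen after values were seen. The symbols otd, h, msh, Dl, yan, phl, Zw5, Psq, calypso and draper were not matched as written and were left out. The lists also held 7 of these genes under the names oc, hry, Dr, aop, dwg, psq and drpr, so the Notch, EGF receptor and Polycomb classes lack Dl, phl and calypso. Classification and distances were tested on planted summits, and overlaps of the deposited lists were compared with those from bedtools. A planted palindromic motif was found again in simulated bases, which does not test the strand handling of the motif search. Figures were drawn with matplotlib 3.10.9, and values computed in Python 3.11.15 with pandas 2.3.3, scipy 1.17.1 and numpy 2.4.6. Alternatives changed the window, the start sites, the list, the match rule and each replicate in turn.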

Additional observations from a re-analysis of the deposited data

How the results depend on the processing

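The share of IDR peaks that were single-strand promoter peaks was 23.4% with a window of 250 bp, 33.4% with 1000 bp, 19.0% with 1 start site per gene, 26.1% with start sites of all gene types for the strand condition and 29.6% in the stronger 5080 IDR peaks. The downstream share was 29.8% (250 bp), 33.4% (1000 bp), 32.8% (1 start site per gene), 21.9% (stronger 5080 peaks), 26.5% (members with 1 start site in the window) and 27.7% (members matched in all 3 replicates). The median distance was -53, -102, -71, -126 and -109 bp in the first 5 of these settings. The median rank was at 47.0% (1000 bp), 45.8% (1 start site per gene) and 37.7% (matched members). The share matched in all 3 replicates was 59.3% (1000 bp), 74.0% (stronger 5080 peaks), 37.7% (overlap of 80%) and 87.8% (summit within 100 bp). The share of genes was 15.2% (250 bp), 17.4% (1000 bp), 13.3% (1 start site per gene), 15.4% (all gene types) and 9.68% (stronger 5080 peaks).

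The median distance in rank group 1 minus that in rank group 10 was -124 bp, and -132.5 (1 start site in the window), -116 (250 bp), -134 (1000 bp) and -100.5 bp (1 start site per gene). The same difference in GC content was -12.9 points, -9.45 with 100 bases on each side of the summit and -14.9 with 1 start site in the window. No result of these settings turned its direction, and the cause of each move was not tested.

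Without each replicate in turn, the replicate mean ranged from 27.6 to 28.7% for the share of peaks, 28.2 to 28.8% for the downstream share, -89.5 to -83 bp for the median distance, 46.2 to 46.4% for the median rank and 16.2 to 16.9% for the share of genes. The single-strand minus divergent rank difference ranged from 12.8 to 14.8, the downstream difference from -14.2 to -13.6 and the rank group distance difference from -127.5 to -120.25 bp. Over windows and start sites the first ranged from 10.9 to 22.3 and the second from -14.4 to -10.4. Of 18 motif shares, 4 moved by more than the replicate SD with 1 start site in the window and 18 with windows of double width. Of 32 gene classes, 4 moved by over 1.5 times with 1000 bp, 8 with 250 bp and 15 in the stronger 5080 peaks. No paired analysis was possible because all samples belong to 1 group, so there are no samples of another group to pair; the sign-flip tests compare peaks within each replicate. Read depth is unknown, and the exact sign-flip test over 3 replicates cannot give a p below 0.25.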
